A study of Mus musculus with 14 samples.

Results

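The guidance genes described here encode Eph receptors and ephrins, semaphorins with their plexin and neuropilin receptors, netrins, and slits with their robo receptors. Gene symbols were matched to the name pattern of each family, and 64 of the 35976 genes in the count tables matched. A gene was used where it had at least 10 counts in at least 3 of the 14 libraries, which 57 genes met. They were 6 EphA and 5 EphB receptors, 5 ephrin-A and 3 ephrin-B ligands, 6 class 3 and 13 other semaphorins, 9 plexins, 2 neuropilins, 4 netrins, 2 slits and 2 robos. The 7 genes left out were Sema3g, Epha6, Epha8, Epha10, Slit1, Robo3 and Robo4, and none of them exceeded 50 counts in a library.

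RNA was measured in supporting cells (SCs) sorted by EGFP from cochleae of Lfng-EGFP mice, a transgenic reporter line on a C57BL/6 background in which regulatory sequence of the Notch pathway gene Lfng drives EGFP. Cochleae taken at postnatal day 0 (P0) or P6 were cultured for 24 h with 2 µM compound E (CompE), a γ-secretase inhibitor that blocks Notch activation, or with its solvent dimethyl sulfoxide (DMSO). There were 4 libraries of each treatment at P0 and 3 of each at P6, each from EGFP+ cells of pooled cochleae, so all 14 libraries shared the reporter, the culture and the sort, and no library came from uncultured tissue. The labels give 6 batches, each holding both treatments of 1 age, so age and batch cannot be told apart. Library totals ran from 19415066 to 44430063 counts. Nothing in the labels says that libraries came from separate litters, so p-values measure the spread between these samples.

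Guidance proteins steer growing axons and migrating cells by attraction or repulsion, and also set cell boundaries and adhesion in epithelia. Ephrins are membrane-anchored ligands of the Eph receptor tyrosine kinases, and both partners can signal when cells touch. Class 3 semaphorins are secreted and bind neuropilins paired with plexins, whereas the other vertebrate semaphorins are mostly membrane proteins that bind plexins directly. Slits are secreted ligands of robos, and netrins are laminin-related secreted proteins. In the developing cochlea, these families are known for guiding spiral ganglion neurites towards the sensory epithelium.

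The summed level of 8 SC marker genes was 4783 to 8738 RPM across libraries (RPM, counts per 1000000 counts of the library), against 395 to 1636 RPM for 8 hair cell (HC) markers and at most 13.0 RPM for 5 endothelial markers. At P0 the HC sum was 1053 to 1636 RPM with CompE and 542 to 1113 RPM with DMSO, and the SC sum was 5266 to 5650 RPM with CompE and 5672 to 8729 RPM with DMSO. At P0 the sums of 6 mesenchyme markers (1190 to 1342 RPM with CompE against 916 to 1090 RPM with DMSO), 6 glial markers (594 to 648 RPM against 441 to 578 RPM) and 6 neuron markers (1767 to 1992 RPM against 1345 to 1688 RPM) also lay higher with CompE. In the mesenchyme list Lum carried the difference, at 941 to 1139 RPM against 688 to 845 RPM, while the other 5 genes overlapped between treatments. In the neuron list Gata3, which is not specific to neurons, made up most of the sum, at 1707 to 1938 RPM against 1284 to 1642 RPM, and Nefl, Nefm and Snap25 overlapped. None of these genes was at 0 in a P0 library. The SC list holds Lfng, itself a Notch target, at 756 to 1139 RPM with CompE and 1144 to 3677 RPM with DMSO at P0. Sox2 and Cdkn1b were also lower with CompE at P0 without overlap. Prox1, Fgfr3, Gjb2, Gjb6 and Rorb overlapped between treatments. At P6 both libraries of replicate 3 (batch 6) stood apart, with HC sums of 1162 and 1447 RPM against 395 to 654 RPM in the other P6 libraries, macrophage sums of 25.8 and 64.1 RPM against at most 7.11 RPM, and mesenchyme sums of 3256 and 3976 RPM against 884 to 2459 RPM. Their SC sums were the lowest at P6, at 4783 and 5878 RPM against 6433 to 8738 RPM. Endothelial sums were 12.1 and 13.0 RPM there against at most 4.55 RPM. Of the HC list only Atoh1 was not raised, at 6.37 and 5.99 RPM against 5.94 to 18.9 RPM. The part of these markers in the results on guidance genes was not tested. As a check of the inhibitor, 7 Notch target genes, Lfng among them, summed to 1069 to 1571 RPM with CompE and 3681 to 6240 RPM with DMSO at P0, and to 777 to 1597 RPM and 1724 to 3510 RPM at P6.

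In control SCs the most abundant guidance mRNA per length was Plxnb2, a receptor of class 4 semaphorins, at 51.4 RPM per kb of exon in P0 DMSO and 36.6 RPM per kb in P6 DMSO libraries. It was followed at P0 by Efnb2, an ephrin-B ligand that also signals in reverse (45.7 RPM per kb), Efna1, a lipid-anchored ephrin-A ligand (43.9 RPM per kb), and Sema3f, a secreted ligand of Nrp2 (43.7 RPM per kb). At P6 the order was Plxnb2, Efna1 (32.8 RPM per kb), Efnb2 (27.5 RPM per kb) and Sema3f (26.3 RPM per kb). In RPM, Efnb2 was 314 ± 49.1 (SD, n = 4) and Efna1 80.4 ± 27.9 (SD, n = 4) in P0 DMSO, so the P0 order of the levels of Efnb2, Efna1 and Sema3f lay within their spread. Of the 57 genes, 43 reached 1 RPM per kb in P0 DMSO and 40 in P6 DMSO, and 23 and 20 reached 10 RPM per kb. Reads were assigned to genes without a stated strand setting, and the spans of 27 of the 57 genes, introns included, overlap an annotated antisense gene. Reads of the partners cannot be told apart where their exons overlap, and overlap of exons was not examined. With genes on the same strand included, 36 of the 57 overlap an annotated gene.

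**Figure D1:**
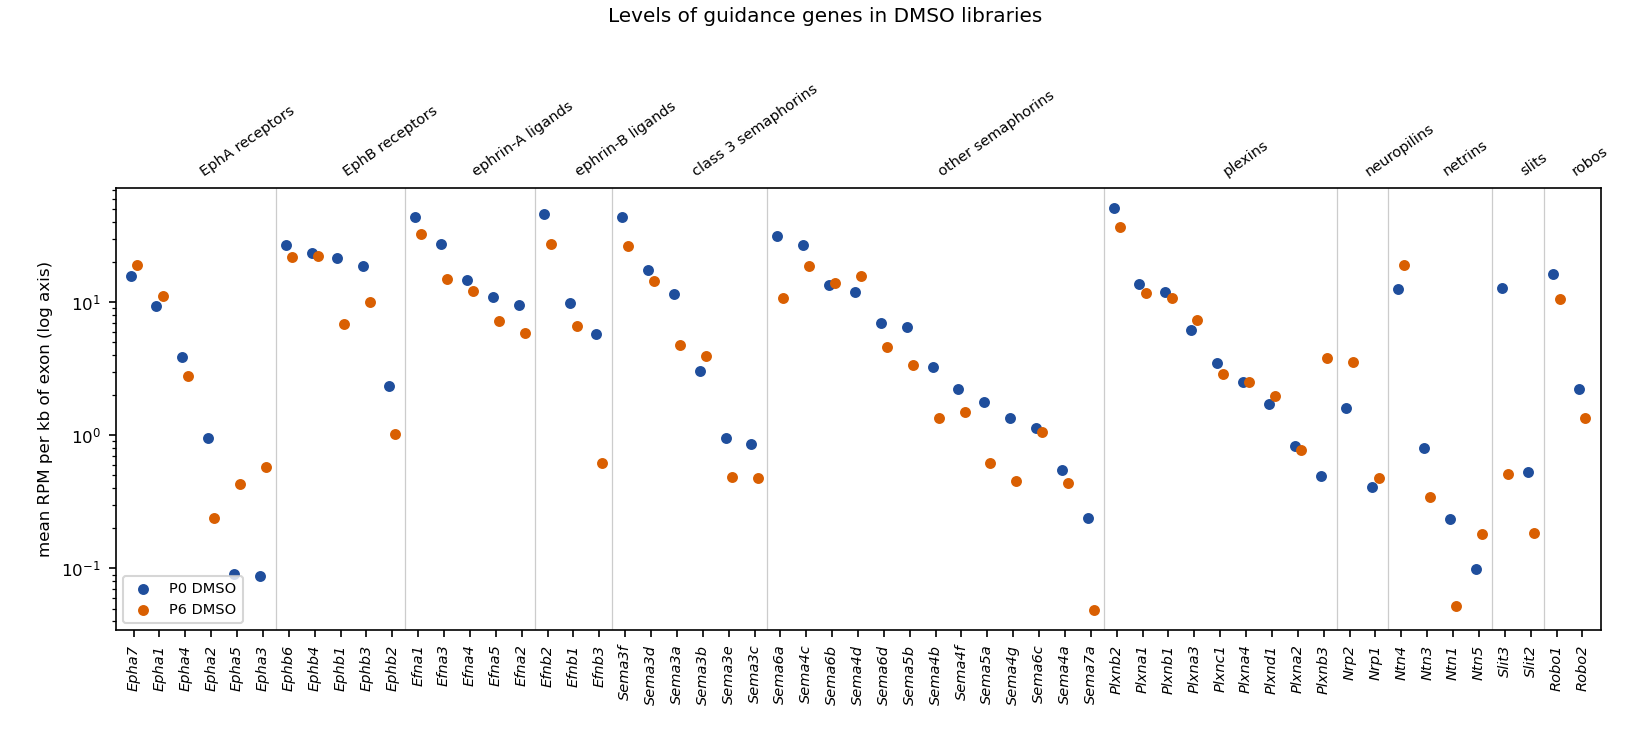
Mean RPM per kb of exon of the 57 guidance genes in P0 DMSO (blue, n = 4) and P6 DMSO (orange, n = 3) libraries, on a log axis, with families separated by lines and genes in order of the P0 level. Plxnb2 had the highest level at each age, at 51.4 and 36.6 RPM per kb, and Nrp1 and Nrp2 stayed below 4 RPM per kb.

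Among EphA receptors Epha7 led at 15.7 RPM per kb in P0 DMSO and 19.1 RPM per kb in P6 DMSO, while Epha5 and Epha3 were at 0.0910 and 0.0881 RPM per kb in P0 DMSO. Among EphB receptors Ephb6, a receptor whose kinase domain lacks catalytic activity, was at 26.9 RPM per kb in P0 DMSO, close to Ephb4 at 23.5 and Ephb1 at 21.6 RPM per kb. Sema4c, a ligand of Plxnb2, was at 26.7 RPM per kb in P0 DMSO and 18.6 RPM per kb in P6 DMSO; Sema6a, a membrane-bound ligand of plexin-A receptors, led the other semaphorins at P0 with 31.3 RPM per kb but was at 10.8 RPM per kb at P6. Neuropilins were low: Nrp2, a co-receptor of class 3 semaphorins, was at 1.60 RPM per kb in P0 DMSO and 3.53 RPM per kb in P6 DMSO, and Nrp1 stayed below 0.5 RPM per kb in every group. Ntn4, a netrin of basement membranes, was the one netrin above 1 RPM per kb, at 12.6 RPM per kb in P0 DMSO and 19.2 in P6 DMSO. Slit3 was at 12.9 RPM per kb in P0 DMSO and 0.509 in P6 DMSO, and its receptor Robo1 was at 16.4 and 10.5 RPM per kb.

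The first comparison asked how guidance genes differ when Notch signaling is inhibited at P0. Sema3a and Sema5a were lower and Sema3c was higher with CompE, each by more than 2-fold. A gene was called where the adjusted p was at most 0.01 and the change at least 2-fold, in edgeR's quasi-likelihood test with Benjamini-Hochberg adjustment over all genes tested. By this rule 3 of 56 guidance genes tested were called, against 195 of 15937 genes, or 1.22%, overall; 1 was higher, where 0.238% of all genes were, and 2 were lower, where 0.985% were. The count moved with single libraries: without CompE replicate 2, 3 or 4 or DMSO replicate 4 the guidance count was 0, without DMSO replicate 2 it was 1, and without DMSO replicate 1 it was 5, while over all alternatives run the log2 fold changes stayed at -1.85 to -1.39 for Sema3a, -1.92 to -1.62 for Sema5a and 1.35 to 1.79 for Sema3c. The median log2 fold change was -0.12 over the 56 guidance genes and 0.01 over all genes tested. In bulk samples, fewer cells of a type and less RNA per cell cannot be told apart.

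Sema3a encodes a secreted semaphorin that repels axons through Nrp1 and plexin-A receptors, and lies at chr5:13125414-13602565 on the plus strand (GRCm38). It was at 117, 240, 117 and 169 RPM in P0 DMSO replicates 1 to 4, and at 59.1, 61.8, 46.4 and 41.6 RPM in the CompE libraries. Every CompE library was below every DMSO library, and the DMSO libraries were more spread. The log2 fold change of Sema3a was -1.67 (SE 0.26, adjusted p = 0.00604, edgeR's quasi-likelihood test with Benjamini-Hochberg adjustment). An annotated antisense gene, Gm42680, overlaps it.

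Sema5a encodes a membrane semaphorin with thrombospondin repeats, a ligand of Plxnb3, and lies at chr15:32244810-32696341 on the plus strand. It was at 25.2, 40.6, 30.9 and 37.3 RPM in P0 DMSO replicates 1 to 4 and at 6.89, 11.2, 11.8 and 10.3 RPM with CompE. The groups did not overlap, and all 4 pairs of libraries that share a replicate number moved down, by log2 ratios between -1.87 and -1.38. The log2 fold change was -1.78 (SE 0.24, adjusted p = 0.00297, edgeR's quasi-likelihood test with Benjamini-Hochberg adjustment). The antisense gene 4930465K09Rik overlaps it.

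Sema3c, at chr5:17574281-17730268 on the plus strand with no annotated antisense gene, encodes a secreted semaphorin that signals through neuropilins. It was at 8.78, 4.86, 5.40 and 5.49 RPM in P0 DMSO replicates 1 to 4 and at 18.1, 16.4, 14.8 and 24.5 RPM with CompE. Each CompE library was above all DMSO libraries, and the mean was 18.4 ± 4.24 RPM (SD, n = 4) against 6.13 ± 1.79 RPM (SD, n = 4). The log2 fold change was 1.57 (SE 0.22, adjusted p = 0.00410, edgeR's quasi-likelihood test with Benjamini-Hochberg adjustment).

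Slit3, at chr11:35121224-35708507 on the plus strand, is overlapped by the antisense gene Gm12123. It was at 63.1, 61.5, 88.2 and 100.0 RPM in P0 DMSO replicates 1 to 4 and at 25.6, 36.1, 40.3 and 33.6 RPM with CompE, again without overlap. Its log2 fold change of -1.24 (SE 0.21) narrowly missed the threshold, with an adjusted p of 0.0106 in edgeR's quasi-likelihood test. With the replicate number as a block it was -1.23 (SE 0.13, adjusted p = 0.00127) and passed. In that blocked fit 350 of 15937 genes, or 2.20%, were called, and 4 of the 56 guidance genes, Slit3 joining the 3 above.

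**Figure D2:**
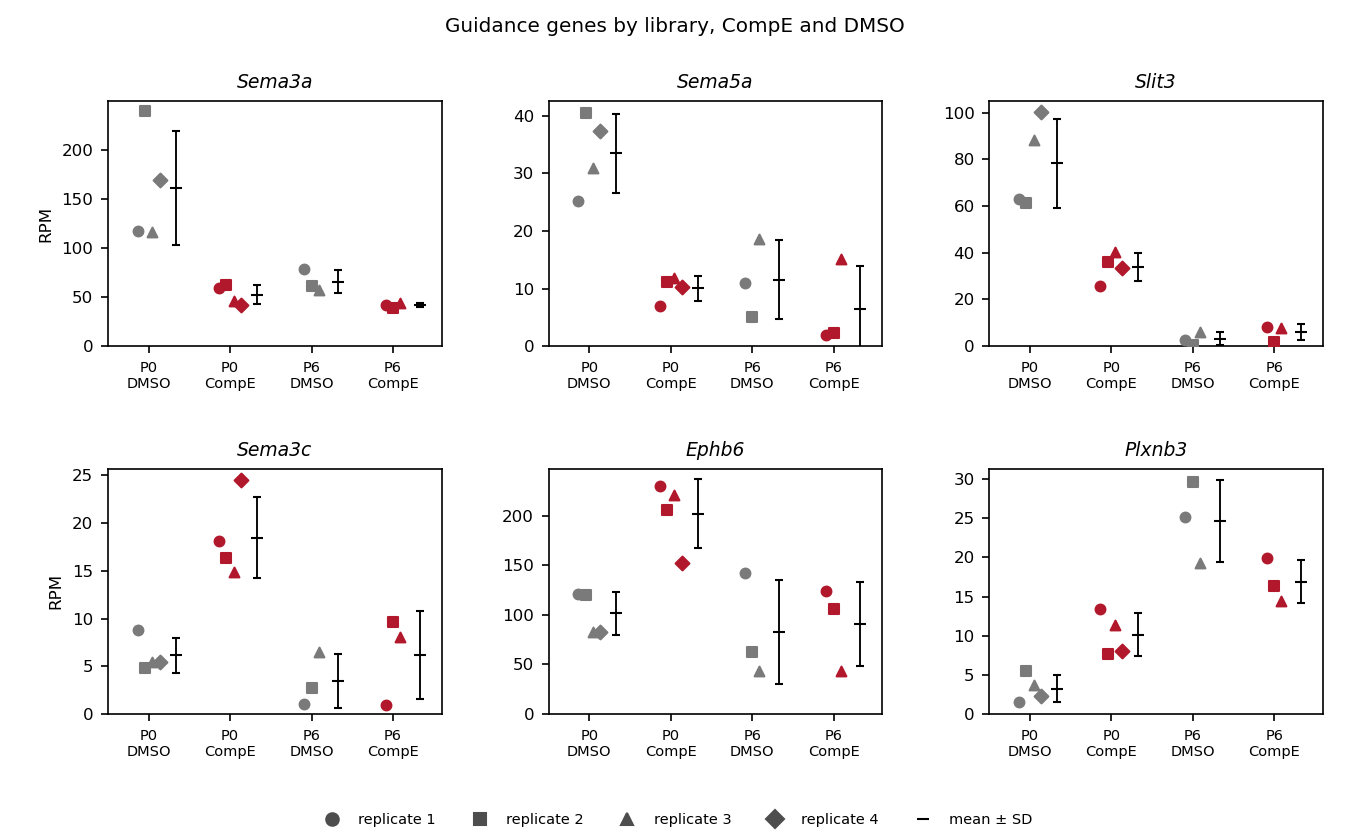
RPM of 6 guidance genes in each library, DMSO in grey and CompE in red, with a symbol for each replicate number and the mean ± SD beside each group (n = 4 at P0 and 3 at P6; axes and bars start at 0). At P0 Sema3a, Sema5a and Slit3 lay lower and Sema3c, Ephb6 and Plxnb3 higher with CompE, with no overlap between treatments, and the replicate 3 libraries at P6 lay apart from the others for Sema5a and Ephb6.

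The other receptors with separate groups at P0 were Ephb6 and Plxnb3. Ephb6 was at 121, 120, 82.5 and 82.4 RPM in P0 DMSO replicates 1 to 4 and at 230, 206, 221 and 152 RPM with CompE. The log2 fold change was 0.96 (SE 0.17, adjusted p = 0.0131, edgeR's quasi-likelihood test with Benjamini-Hochberg adjustment), under 2-fold and past the adjusted p but not the fold in the blocked fit (0.00212). Plxnb3, the receptor of Sema5a, was at 1.48, 5.43, 3.72 and 2.33 RPM with DMSO and at 13.4, 7.73, 11.4 and 8.02 RPM with CompE, from 39 to 596 counts a library. Its log2 fold change of 1.57 (SE 0.39) had an adjusted p of 0.0596 in edgeR's quasi-likelihood test and 0.0356 with the block.

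Treatments did not overlap at P0 in 7 of the 56 guidance genes tested, against 9.88% of all genes tested: the 6 genes above and Sema6c, which was 7.62 to 10.5 RPM with CompE and 4.89 to 7.56 RPM with DMSO and is named here after its values were seen. Unadjusted p was below 0.05 for 13 of the 56 guidance genes and for 2135 of all 15937 genes tested. Most of the abundant ligands and receptors were close to their controls. Efnb2 had a log2 fold change of 0.01 at P0, with 324 ± 47.3 RPM with CompE and 314 ± 49.1 RPM with DMSO (SD, n = 4 each), Sema3f had 221 ± 33.6 and 227 ± 6.87 RPM, and Plxnb2 had 464 ± 63.9 and 397 ± 60.2 RPM. By family, 0 of 11 Eph receptors, 0 of 8 ephrins, 3 of 19 semaphorins, 0 of 11 plexins and neuropilins and 0 of 7 netrins, slits and robos tested were called. In the blocked fit the last count was 1. Over all genes tested the shares called were 1.22% and, in the blocked fit, 2.20%. Nrp2, the more abundant neuropilin, had a log2 fold change of -1.20 (SE 0.47, adjusted p = 0.280, edgeR's quasi-likelihood test), with 4.73, 20.9, 23.1 and 27.1 RPM in DMSO replicates 1 to 4 and 6.03 to 12.6 RPM with CompE.

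**Figure D3:**
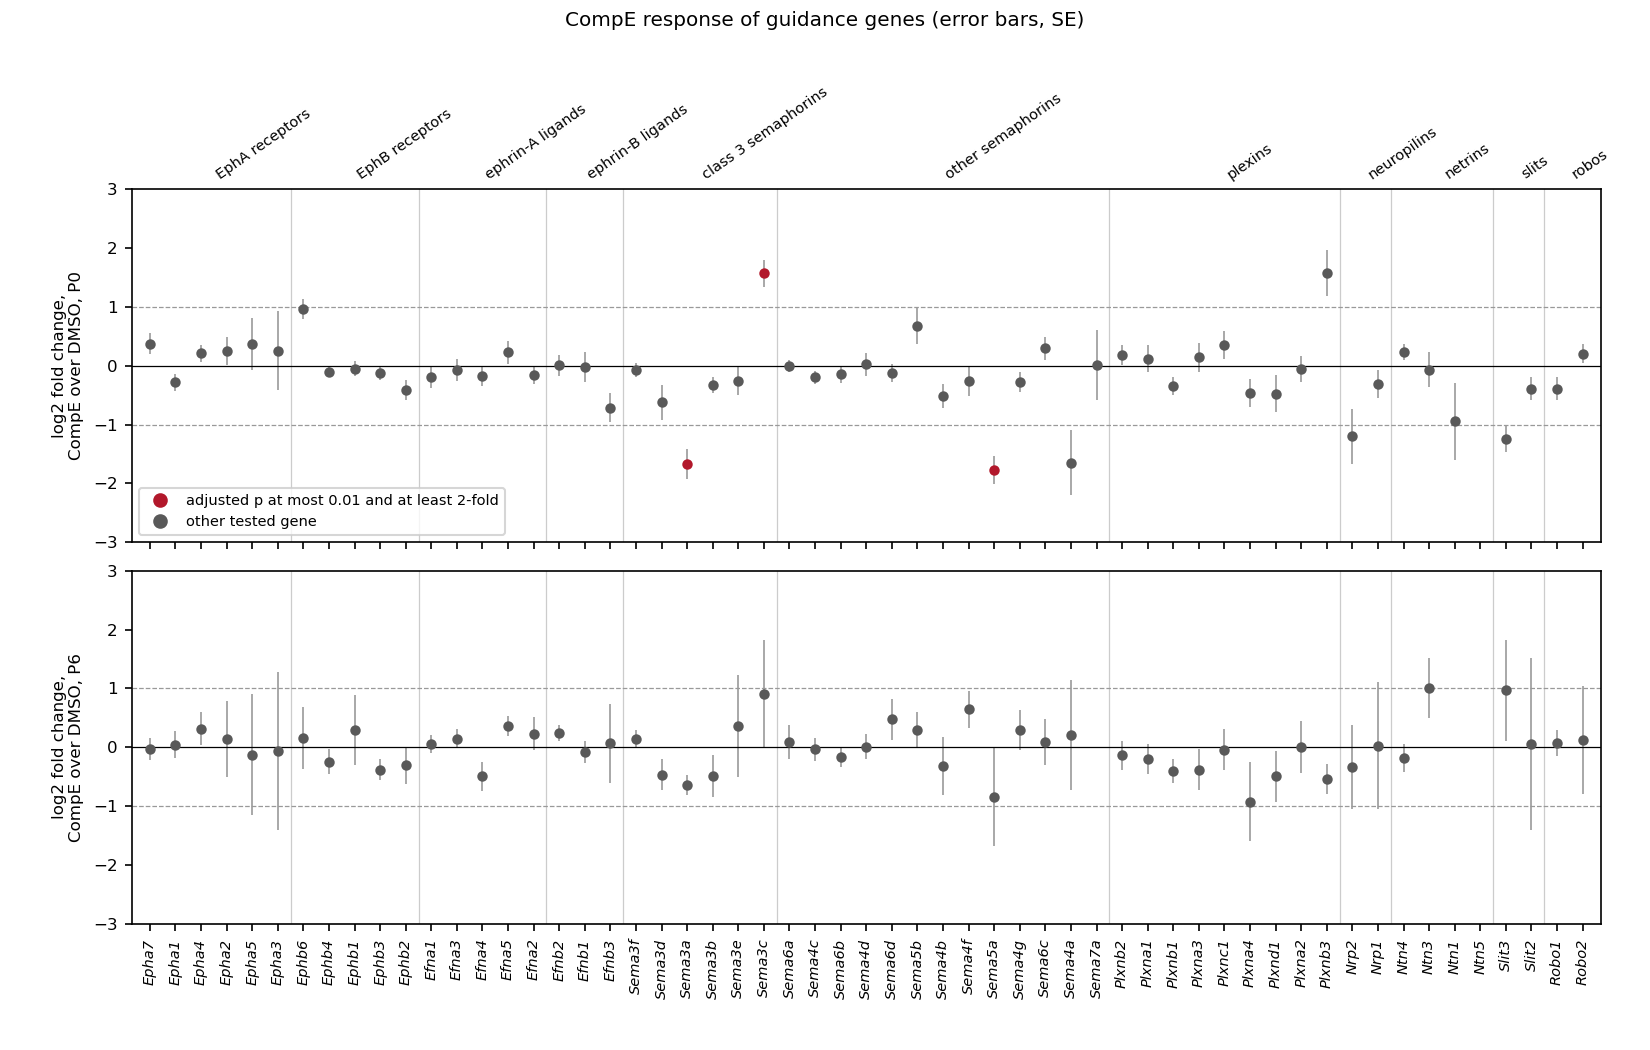
Log2 fold change of CompE over DMSO for each guidance gene tested at P0 (top) and P6 (bottom) from edgeR's fit, with the standard error as bars and dashed lines at 2-fold. Red points, Sema3a, Sema5a and Sema3c at P0, passed the threshold, and no gene passed at P6.

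The windows of 250 bases before the RefSeq start of Sema5a and Sema3a are shown because both genes were lower with CompE at P0. A protein-coding GENCODE transcript begins at the same base for Sema3a, whose window lies within the span of non-coding transcripts of the same gene, and the GENCODE start of Sema5a is within 3 bases; for Slit3 and Sema3c, GENCODE places the gene start further upstream and no window is shown. Sequences are from RefSeq (GRCm38.p6) on the plus strand, at chr15:32244563-32244812 and chr5:13396534-13396783, and 50 of the 57 guidance genes had an entry. Capitals mark matches on either strand to TGGGAA, the core bound by the Notch effector RBPJ, to CANNTG, the E-box bound by ATOH1 among others, and to CACGNG and CACNAG, sites bound by HES and HEY repressors.
Sema5a: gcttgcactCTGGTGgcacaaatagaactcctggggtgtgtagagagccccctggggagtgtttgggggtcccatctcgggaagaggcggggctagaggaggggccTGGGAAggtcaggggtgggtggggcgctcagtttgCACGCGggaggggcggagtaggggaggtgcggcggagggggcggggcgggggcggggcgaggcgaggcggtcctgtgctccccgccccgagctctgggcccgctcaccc
Sema3a: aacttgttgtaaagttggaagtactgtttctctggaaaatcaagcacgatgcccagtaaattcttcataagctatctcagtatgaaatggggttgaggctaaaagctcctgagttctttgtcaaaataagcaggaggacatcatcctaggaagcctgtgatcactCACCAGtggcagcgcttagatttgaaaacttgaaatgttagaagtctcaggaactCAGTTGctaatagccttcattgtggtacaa
In Sema5a, TGGGAA began 144 bases, CACGCG 109 bases and CTGGTG 241 bases before the start. In Sema3a, CAGTTG began 30 bases and CACCAG 85 bases before the start, and TGGGAA was not in this window. Of 32851 windows of the same length, 21.6% held TGGGAA, 66.2% CANNTG, 23.5% CACGNG and 36.7% CACNAG, so such matches are common. A match describes these letters only.

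At P6 no guidance gene differed between CompE and DMSO beyond the threshold, and in edgeR's test no Notch target did either. The biological coefficient of variation, the spread between replicates beyond counting noise, was 46.7% in the P6 fit and 27.2% at P0. Nrarp, a Notch target, was not called at P6, at 16.7 to 21.2 RPM with CompE and 39.3 to 89.8 RPM with DMSO. A count of 0 therefore does not show that guidance genes did not respond. In edgeR's quasi-likelihood test 0 of 54 guidance genes tested and 0 of 15322 genes (0%) were called, with and without the replicate block; unadjusted p was below 0.05 for 1 guidance gene and 289 genes without the block, and for 9 and 1108 with it, and DESeq2 called 0 guidance genes and 13 genes. The 1 guidance gene was Sema3a, at 78.9, 61.3 and 56.9 RPM in DMSO replicates 1 to 3 and 42.3, 39.2 and 43.9 RPM with CompE. These values did not overlap either, and the log2 fold change was -0.64 (SE 0.17), with an unadjusted p of 0.00690 in edgeR's quasi-likelihood test and an adjusted p that rounds to 1.00.

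Treatments did not overlap in 8 of 54 guidance genes at P6, where 7.19% of all genes tested did not. These were Ntn3, Efna5, Sema4g, Sema4f and Efnb2, higher with CompE, and Ephb3, Efna4 and Sema3a, lower; apart from Sema3a, Sema4f, Sema4g and Efnb2, they are named after their values were seen. Efnb2 was at 222, 231 and 210 RPM with CompE and 205, 167 and 194 RPM with DMSO. Ephb3, one of its receptors, was at 54.8, 45.8 and 53.5 RPM with CompE and 81.7, 60.6 and 59.4 RPM with DMSO. Sema4f, a membrane semaphorin, had a log2 fold change of 0.64 (SE 0.31) between 12.2 ± 2.83 and 7.93 ± 2.34 RPM (SD, n = 3 each).

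Several of the more extreme differences at P6 came with wide replicates. Among guidance genes whose CompE or DMSO mean reached 5 RPM, Slit3 (0.97, SE 0.86) and Sema3c (0.90, SE 0.92) had the highest log2 fold changes, and Plxna4, a plexin-A receptor (-0.92, SE 0.67), and Sema5a (-0.84, SE 0.83) the lowest. Below that level, Ntn3 reached 1.01 (SE 0.51), at 4.22, 2.79 and 3.53 RPM with CompE and 1.67, 1.08 and 2.55 RPM with DMSO. Annotated genes overlap Ntn3 on the same strand (Tbc1d24) and on the other strand (BC028777). Sema5a was at 1.91, 2.33 and 15.1 RPM with CompE and 10.9, 5.04 and 18.7 RPM with DMSO, the replicate 3 value being highest in each group and CompE being lower in all 3 pairs. Plxna4 was at 38.4, 7.49 and 10.0 RPM with CompE and 55.4, 31.4 and 18.9 RPM with DMSO, also lower in each pair. Among guidance genes with a group mean of at least 5 RPM, the fold between the highest and lowest library reached 24.4 for Robo2 in P6 DMSO and 18.1 for Epha5 in P6 CompE, with a median of 1.46 to 1.61 in the 4 groups. Just below that level, it was 39.0 for Epha3 and 31.7 for Nrp1 in P6 DMSO.

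Many of these wide genes followed batch 6. In 18 of 54 guidance genes both batch 6 libraries were above the other 4 P6 libraries and in 4 they were below, 40.7% in all, against 32.9% of all genes tested. Robo2, a slit receptor, was at 40.8 and 50.9 RPM in batch 6 and 2.09 to 18.5 RPM in the other P6 libraries. Epha3 was at 11.9 and 13.0 RPM against 0.334 to 1.66 RPM, and Nrp1 at 9.58 and 10.6 RPM against 0.334 to 3.21 RPM. Ephb1 was the reverse, at 20.3 and 21.6 RPM against 57.5 to 89.3 RPM, and Ephb6 was at 43.3 and 43.4 RPM against 62.3 to 141.8 RPM. The same libraries held the marker sums given above, lower for SCs and higher for HCs, macrophages, mesenchyme and endothelium. The part of those markers was not tested.

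The third comparison asked which guidance genes differ between P6 and P0 control SCs. Slit3, Efnb3, Epha2, Sema4g, Sema6a, Sema3a and Ephb2 were lower and Plxnb3 was higher at P6. By the same threshold 8 of 57 guidance genes were called in the fit of all 14 libraries, where 7.12% of 17090 genes were; 1 was higher, against 3.74% of genes, and 7 were lower, against 3.38%. The median log2 fold change over the guidance genes was -0.46, and -0.05 over all genes. The difference holds the batches as well as age. Ephb2 and Sema3a missed the adjusted p or the fold with some libraries left out (each without P0 DMSO replicate 2 or 4, P6 DMSO replicate 2 or 3, or batch 6, and Ephb2 also without P0 DMSO replicate 3), and with them Epha2 where the 7 DMSO libraries were fitted alone.

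Slit3 was at 61.5 to 100.0 RPM in the 4 P0 DMSO libraries and at 2.54, 0.576 and 6.14 RPM in P6 DMSO replicates 1 to 3, which are 61, 16 and 253 counts. The log2 fold change was -4.59 (SE 0.64, adjusted p = 0.000254, edgeR's quasi-likelihood test with Benjamini-Hochberg adjustment). Efnb3, an ephrin-B ligand (chr11:69554092-69560205, minus strand), was at 21.9, 15.3, 13.9 and 22.1 RPM at P0 and 3.17, 0.756 and 2.01 RPM at P6, with a log2 fold change of -3.15 (SE 0.44). Epha2, an Eph receptor (chr4:141301240-141329384, plus strand), was low at both ages, at 3.93 to 4.83 RPM at P0 and 0.793 to 1.38 RPM at P6. Its log2 fold change was -1.94 (SE 0.36).

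Sema6a was tight at P0, at 267, 277, 275 and 281 RPM, and lay at 136, 58.5 and 90.2 RPM at P6, with a log2 fold change of -1.47 (SE 0.21). Sema4g, a membrane semaphorin, was at 8.69 to 13.4 RPM at P0 and 3.57 to 4.25 RPM at P6 (-1.51, SE 0.21), and Ephb2, a receptor of ephrin-B ligands, at 21.3 to 33.8 and 10.9 to 15.3 RPM (-1.15, SE 0.24). Sema3a was at 117 to 240 RPM at P0 and 56.9 to 78.9 RPM at P6 (-1.23, SE 0.25). Plxnb3 (chrX:73757090-73772514, plus strand) was alone in the other direction, at 1.48 to 5.43 RPM at P0 and at 25.2, 29.6 and 19.2 RPM at P6. Its log2 fold change was 2.98 (SE 0.38, adjusted p = 0.000132, edgeR's quasi-likelihood test with Benjamini-Hochberg adjustment), and no P0 and P6 values of these 8 genes overlapped.

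**Figure D4:**
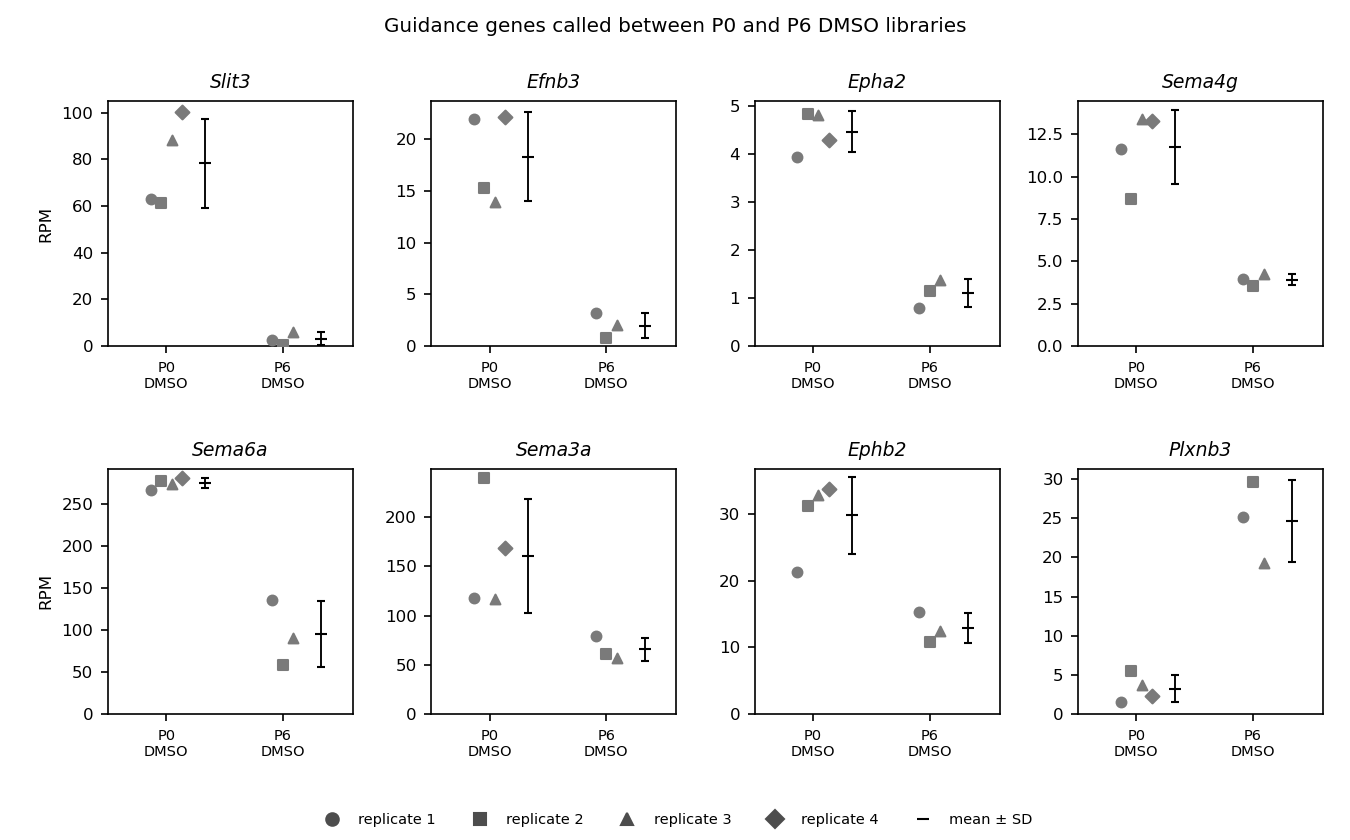
RPM of the 8 guidance genes called between P6 and P0, in each DMSO library, with a symbol for each replicate number and the mean ± SD beside each group (n = 4 at P0, n = 3 at P6). Slit3 ran from 61.5 to 100.0 RPM at P0 and from 0.576 to 6.14 RPM at P6, and Plxnb3 lay higher at P6.

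All 8 ephrins and all 5 EphB receptors had a negative log2 fold change with age, where 9065 of all 17090 genes did, and 1 was called in each group. The medians were -0.58 for ephrins and -0.82 for EphB receptors, and some values were near 0, such as -0.02 (SE 0.15) for Ephb4 and -0.22 (SE 0.38) for Ephb6. The EphA receptors were mixed: of 6, 4 were positive and 2 negative, with a median of 0.34, and 1 was called, lower. Among the 19 semaphorins, 16 were negative and 3 called, whereas 5 of 11 plexins and neuropilins were negative and 1 was called, higher. Of all genes tested, 3.74% were called higher and 3.38% lower with age in DMSO. The 3 ligands with the highest levels had negative values under 2-fold: Efna1 (-0.33, SE 0.18, adjusted p = 0.217), Efnb2 (-0.67, SE 0.18, adjusted p = 0.0155) and Sema3f (-0.66, SE 0.14, adjusted p = 0.00477, edgeR's quasi-likelihood test with Benjamini-Hochberg adjustment). For the same contrast of ages in the CompE libraries, 6 of the 57 guidance genes were called, all lower, where 6.43% of all genes were called, 3.54% higher and 2.89% lower. For Plxnb3 the log2 difference there was 0.88 (SE 0.36, adjusted p = 0.0980) and for Sema3a -0.18 (SE 0.25).

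The age comparison in DMSO and the P0 treatment comparison share the P0 DMSO libraries, so values are set side by side only. Sema3a had log2 fold changes of -1.67 with CompE at P0 and -1.23 with age, Sema5a of -1.78 and -1.49 (adjusted p = 0.0873 with age, edgeR's quasi-likelihood test), Slit3 of -1.24 and -4.59, Plxnb3 of 1.57 and 2.98, and Sema3c of 1.57 and -0.76.

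The last comparison asked whether the CompE response differed between ages. No guidance gene passed: 0 of 57, and 0 of 17090 genes (0%), were called in edgeR's quasi-likelihood test of the interaction, 4 guidance genes and 811 genes had an unadjusted p below 0.05, and DESeq2 also called 0 guidance genes. With the replicate block, 16 genes (0.0936%) were called and none of them was a guidance gene, with 11 guidance genes at an unadjusted p below 0.05. In the blocked fit the lowest adjusted p among guidance genes was that of Slit3. Slit3 was lower with CompE in all 4 pairs at P0, by log2 ratios of -1.57 to -0.77. At P6 it was higher in all 3 pairs, by 0.33 to 1.73, at 8.31, 1.92 and 7.72 RPM with CompE. Its difference between ages was 2.20 (SE 0.76, adjusted p = 0.856) without the block and 2.37 (SE 0.35, adjusted p = 0.0269) with it, in edgeR's quasi-likelihood test with Benjamini-Hochberg adjustment. Plxnb3 moved the other way, higher in all 4 pairs at P0 and lower in all 3 at P6, where it was at 19.9, 16.3 and 14.5 RPM with CompE. Its difference was -2.10 (SE 0.53, adjusted p = 0.426), and -2.20 (SE 0.51, adjusted p = 0.126) with the block, while DESeq2 gave -2.11 with an adjusted p of 0.0231, the lowest among guidance genes in that test.

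Across the 54 guidance genes tested at both ages, the log2 fold changes at P0 and P6 had Pearson's r of 0.25 and Spearman's rho of 0.26, and 26 genes, or 48.1%, had the same sign. Over the 14755 genes tested at both ages, r was 0.23, rho 0.19 and the share 56.9%. These correlations are across genes of the same libraries and are given as a description.

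Of 40 further genes of guidance pathways (netrin receptors, other cues and intracellular effectors), 1 of 37 tested was called at P0, 0 of 35 at P6, and 2 higher and 2 lower of 40 with age. Over all genes tested, 1.22% were called at P0, 0% at P6, and 3.74% higher and 3.38% lower with age. The gene called at P0 was Dpysl2, encoding CRMP2, a cytoskeletal mediator of semaphorin signaling, at 311 RPM with CompE and 148 RPM with DMSO on average (log2 fold change 1.03, adjusted p = 0.00484, edgeR's quasi-likelihood test with Benjamini-Hochberg adjustment). It was called with age too (1.44, adjusted p = 0.000144), and the lower ones were Dpysl4 (-2.22, adjusted p = 0.00125) and Flrt3 (-1.70, adjusted p = 0.00186). In the blocked fit at P0, Flrt3, a membrane ligand of Unc5 receptors, was called as well (1.07, adjusted p = 0.00528), at 122 RPM with CompE against 54.1 RPM with DMSO. Of the netrin receptors, Dcc was at most 0.374 RPM on average in each group, whereas Neo1 was at 119 to 219 RPM and Unc5b at 27.1 to 134 RPM on average.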

How the data were processed

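Libraries were made by the study with SMART-Seq v4 PLUS from sorted EGFP+ cells and have no molecular identifiers. Per the submitters' processing notes, reads were trimmed with Trim Galore 0.6.0 and cutadapt 1.15 and aligned with STAR 2.7.0f; the annotation release and strand setting are not given in the sources used here. The values the authors deposited are raw counts per gene, not normalized, in 1 table per age, with 0 columns left unmapped to a sample. Totals were 19415066 to 44430063 counts, so a gene at 1 RPM had at least 19 counts.

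RPM is counts per 1000000 counts of the library, and RPM per kb divides by union exon length (GENCODE M21, GRCm38). Tests used edgeR 4.0.16 in R 4.3.3 (TMM, filterByExpr with a minimum count of 10, the earlier quasi-likelihood method), with Benjamini-Hochberg adjustment; called genes had adjusted p ≤ 0.01 and changed by 2-fold or more. SE is the log2 fold change over the square root of F. Treatment was fitted within each age, and age and interaction in all 14 libraries. The test was checked on simulated counts. Samples of the same replicate number deviated together (correlation of deviations 0.162 to 0.500 at P0 and 0.264 to 0.620 at P6), and the labels tie them to batches, so blocked values are printed where they change a call.

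Genes were named where called in any comparison with or without the block, among the 3 highest or lowest log2 fold changes in a treatment comparison with at least 5 RPM, or highest per kb of a family, 22 genes in all. Members and lists were chosen with earlier results of these data known. Alternatives were DESeq2 1.42.0, its size factors, no filter, blocks, looser thresholds, other sample sets and each library left out. Chosen after seeing the data were edgeR's newer method, the block with the looser threshold, and the age test without batch 6. 1 of the further genes called with age is not reported here by name.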

Additional observations from a re-analysis of the deposited data

Results flagged for a closer look

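In P0 DMSO replicate 1, Efnb2 was at 240.0 RPM while the other 3 libraries lay between 335.5 and 340.0 RPM, a gap larger than Dixon's test allows for 4 samples at 95%. In the same library Sema3c was at 8.78 RPM, with the others between 4.86 and 5.49 RPM. These were 2 of 44 groups of 4 libraries examined, where chance alone gives about 1 in 20, or 2.2. That library also had the lowest SC marker sum of its group, 5672 RPM against 8145 to 8729 RPM. Within that sum Lfng was at 1144 RPM against 3164 to 3677 RPM. Sox2, Prox1, Fgfr3 and Rorb were lowest there too, and Gjb2, Gjb6 and Cdkn1b lay within the range of the other libraries. The part of these markers in the Efnb2 and Sema3c values was not tested. Leaving out P0 DMSO replicate 1 did not lower the number of guidance genes called at P0, which was 5 without it.

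The response of Slit3 to CompE differed between ages by 2.37 on the log2 scale in the fit with the replicate block, with an adjusted p of 0.0269 in edgeR's quasi-likelihood test of the interaction. Without the block the difference was 2.20 with an adjusted p of 0.856. At P6 it rests on 16 to 253 counts per library, and over the alternatives run the difference lay between 1.72 and 3.18. Plxnb3 differed between ages by -2.11 on the log2 scale in DESeq2's test of the interaction, with an adjusted p of 0.0231, and by -2.10 with an adjusted p of 0.426 in edgeR's quasi-likelihood test; over the alternatives run it lay between -2.49 and -1.84.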

How the results depend on the processing

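The 3 guidance genes called at P0 became 5 with DESeq2, 5 when adjusted p up to 0.05 was enough whatever the fold, 8 under that looser threshold with the replicate block, and 1 (Sema3a) with all 14 libraries in one fit. Leaving out a library or a replicate number gave 0 to 5: 0 without CompE replicate 2, 3 or 4, without DMSO replicate 4, or without both libraries of replicate 2, 3 or 4, and 1 without DMSO replicate 2. The log2 fold changes kept their sign throughout, at -1.85 to -1.39 for Sema3a, -1.92 to -1.62 for Sema5a and 1.35 to 1.79 for Sema3c; adjusted p reached 0.0877, 0.165 and 0.316. Over all genes, calls at P0 were 195, 350 with the replicate block, 443 with DESeq2, 617 at the looser threshold, 117 with all 14 libraries in one fit, and 1 without both libraries of replicate 4. At P6 the count was 0 in every fit run. The age count of 8 became 17 at the looser threshold and was 6 to 9 when libraries were left out. The interaction count of 0 became 1 (Slit3) with the replicate block at the looser threshold. Without P6 DMSO replicate 3 the Sema3c interaction was 0.14, and without P6 CompE replicate 3 that of Sema5a was -0.58, each of opposite sign to the value with all libraries (-0.66 and 0.94); leaving out single libraries gave -1.21 to 0.14 for Sema3c and -0.58 to 1.44 for Sema5a. Of the other values of named genes under an alternative, 388 had the same status as in the main fit, called or not called. A further 41 lost a call and 14 gained one, in the same direction. The 388 include values called in neither fit, among them all those of the treatment effect at P6, so they are not a count of calls kept. At P6 a batch block is the same as the replicate block and was not run apart. At the main threshold the replicate block changed only the call of Slit3 at P0, which made 4 guidance genes called there.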
